A study of Homo sapiens with 12 samples.

Results

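The genes described here are 6 transcription factors of the luminal, or differentiated, state of the bladder epithelium, namely GATA3, FOXA1, PPARG, GRHL3, TFAP2A and ELF3. They were taken by gene symbol from the authors' annotated H3K27me3 peaks. All 6 were annotated to at least 1 peak at some distance, among 23021 such genes, and 4 of the 6 had a peak centred within 10 kb of the transcription start site (TSS), among 18981 such genes. The measurements came from 4 H3K27me3 ChIP-seq libraries of T24, an established human bladder cancer cell line. Cells had been treated for 72 h with GSK-126 and fenretinide together (5 µM each, the combination), GSK-126 alone (5 µM), fenretinide alone (5 µM) or the DMSO vehicle. Each treatment had 1 library, so no value below has a replicate spread or a test. RNA-seq and input libraries of the same treatments were not analysed here, so whether T24 cells transcribe these genes was not examined.

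H3K27me3 is the repressive histone mark written by Polycomb repressive complex 2, whose catalytic subunit is EZH2. GSK-126 inhibits that enzyme, and fenretinide is a synthetic retinoid. GATA3, a zinc finger factor, FOXA1, a forkhead factor that can bind closed chromatin, and PPARG, a nuclear receptor that pairs with RXR, together direct urothelial luminal identity. GRHL3, a grainyhead factor, and ELF3, an ETS factor, act in terminal differentiation and barrier formation of epithelia. TFAP2A encodes AP-2 alpha, a factor of epithelial development that has also been tied to squamous differentiation in bladder cancer.

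Values are fragments (read pairs) counted in consensus intervals, the regions that the authors merged from the peaks of the 4 libraries. The combination library had 15812933 fragments in the 273664 intervals, the GSK-126 library 16156194, the fenretinide library 18928836 and the vehicle library 17133107. A ratio is the share of one library's interval fragments over that of another, with a 95% exact counting interval (Clopper-Pearson) in brackets, which covers counting error only and compares libraries. The rule for a call was a ratio of 2 or more (higher) or of 0.5 or less (lower), an interval that excluded 1, and 50 or more fragments per gene in the pair of libraries. Single intervals needed 20 fragments. A ratio of shares does not give the absolute amount of the mark, and no added reference chromatin is named in the sources used here. Scaled instead to the 25% of intervals with the fewest fragments per kb, log2 ratios to vehicle shift by -0.81 in the combination, -0.77 in GSK-126 and -0.13 in fenretinide.

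Reference promoters showed where the mark touched these genes. RefSeq (GRCh38.p14) lists 18 start sites for the 6 genes, and the promoter of 2 of them, the outer starts of GRHL3 and TFAP2A, overlapped a consensus interval. In both cases the vehicle library alone had a peak over that promoter. The covered promoter of each gene is printed with the uncovered inner one, 5′ to 3′ on the gene's strand, from 250 bases before to 50 after the start, with CpG dinucleotides in capitals.
GRHL3 outer start (chr1:24319107-24319406, plus strand): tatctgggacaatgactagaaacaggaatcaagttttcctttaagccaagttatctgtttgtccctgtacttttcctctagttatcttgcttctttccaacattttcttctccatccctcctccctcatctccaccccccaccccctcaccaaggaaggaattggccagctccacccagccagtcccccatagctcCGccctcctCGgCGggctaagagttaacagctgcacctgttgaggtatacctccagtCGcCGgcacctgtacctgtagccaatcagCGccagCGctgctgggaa
GRHL3 inner start (chr1:24322790-24323089, plus strand): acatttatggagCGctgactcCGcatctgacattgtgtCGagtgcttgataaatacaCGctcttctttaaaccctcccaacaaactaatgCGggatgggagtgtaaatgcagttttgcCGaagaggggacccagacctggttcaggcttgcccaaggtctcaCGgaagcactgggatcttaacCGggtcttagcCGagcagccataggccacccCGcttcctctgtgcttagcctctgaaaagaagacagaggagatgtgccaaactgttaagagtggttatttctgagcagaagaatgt
TFAP2A outer start (chr6:10419610-10419909, minus strand): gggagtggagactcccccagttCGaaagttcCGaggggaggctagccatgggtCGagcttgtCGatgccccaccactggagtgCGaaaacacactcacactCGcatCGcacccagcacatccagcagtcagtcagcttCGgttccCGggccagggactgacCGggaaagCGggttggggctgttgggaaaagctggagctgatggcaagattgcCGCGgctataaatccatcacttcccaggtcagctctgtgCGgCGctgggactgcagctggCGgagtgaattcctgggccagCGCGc
TFAP2A inner start (chr6:10412342-10412641, minus strand): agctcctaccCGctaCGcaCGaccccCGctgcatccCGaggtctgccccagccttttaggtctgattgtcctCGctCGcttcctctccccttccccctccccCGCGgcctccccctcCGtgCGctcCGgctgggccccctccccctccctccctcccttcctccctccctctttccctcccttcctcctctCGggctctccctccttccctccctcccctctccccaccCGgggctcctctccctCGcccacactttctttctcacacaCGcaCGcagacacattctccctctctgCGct

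CpG dinucleotides numbered 7 in the covered GRHL3 promoter and 10 in its uncovered one. Both TFAP2A promoters held 18, against a median of 14 over 35116 RefSeq promoters of 300 bases. The GATA-type letters AGATAA, searched on both strands, occurred at 2 places in the covered GRHL3 promoter, and 10.3% of all promoters held at least 1 such match. The AP-2-type letters GCCNNNGGC occurred once in the uncovered GRHL3 promoter and in neither TFAP2A promoter, against 23.2% of all promoters with a match. None of the 4 printed promoters held the forkhead-type letters TGTTTAC (3.42% of all promoters), the grainyhead-type letters AACCNGTT (1.73%) or the ETS-type letters CCGGAAGT (4.14%). A match or its absence describes these windows only.

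The other 4 genes had no interval over a RefSeq promoter. ELF3 came nearest, with an interval beginning 0.934 kb from its start, inside the gene. GATA3 had its nearest interval 2.21 kb upstream of its outermost start. FOXA1 was 15.8 kb from the nearest interval, which carried peaks annotated to its neighbour TTC6. PPARG was 29.2 kb from the nearest interval, annotated to TIMP4, counted from its outermost start. Over the RefSeq gene bodies, GRHL3 held 8 intervals, TFAP2A, ELF3 and PPARG 1 each, and GATA3 and FOXA1 none.

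Among the members, the density of the mark within 10 kb differed in the vehicle library. Per unit length, the vehicle library had 0.847 fragments per kb per 1000000 interval fragments in the TFAP2A interval within 10 kb and 0.772 in those of GRHL3. ELF3 had 0.526, from only 18 fragments, and GATA3 0.525 on that scale. TFAP2A had a vehicle density at or above that of 56.6% of all genes with an interval within 10 kb, GRHL3 49.5%, ELF3 25.8% and GATA3 25.7%. FOXA1 and PPARG had no value at this distance.

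Across the 3 treatments, the members went different ways. H3K27me3 near GRHL3 and TFAP2A and downstream of ELF3 was called lower in the combination and GSK-126 libraries, at between 0.0903 and 0.287 of the vehicle share. Over all its 14 intervals GRHL3 was not called, at 0.569 in the combination and 0.528 in GSK-126. ELF3 held too few fragments within 10 kb to measure. The mark far downstream of FOXA1 was called higher in the combination and GSK-126 libraries, at 3.62 times the vehicle share in the combination and 3.43 times in GSK-126. GATA3 was called on neither side within 10 kb or over all its intervals, although its 5 intervals beyond 10 kb were called lower in GSK-126, and PPARG held too few fragments to measure. In the fenretinide library, TFAP2A was called lower, and the other measured members were called on neither side.

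**Figure D1:**
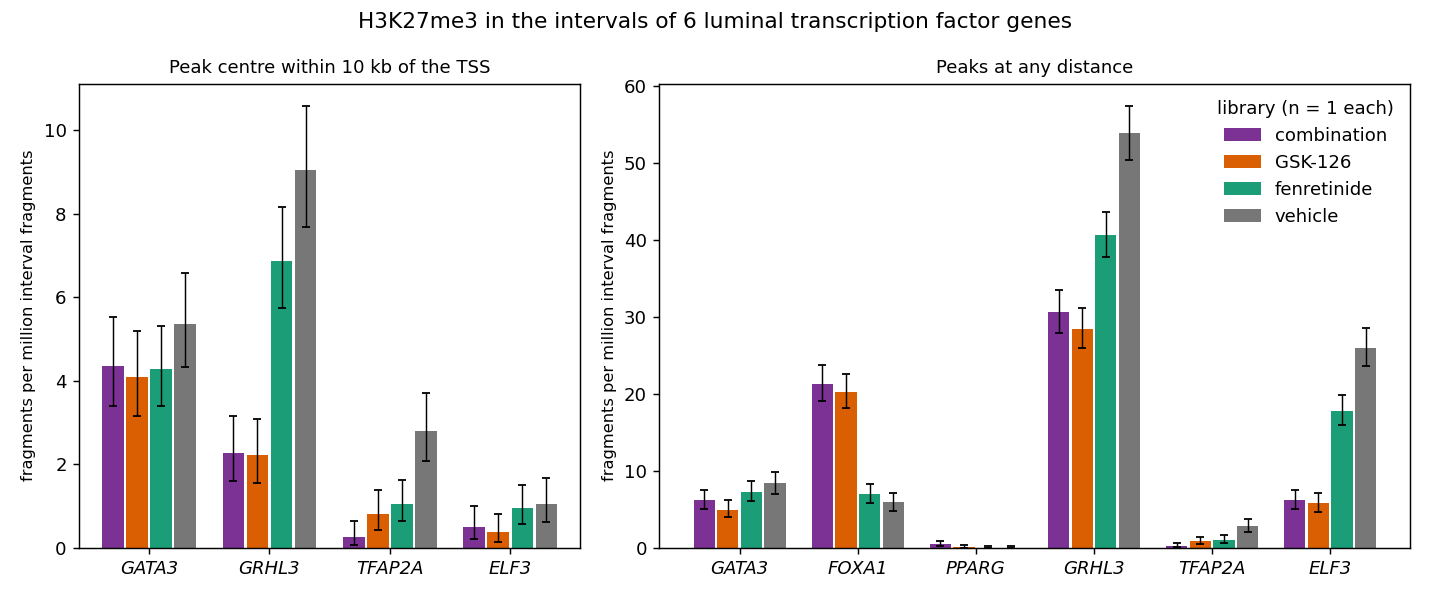
Fragments per 1000000 interval fragments (y axis) for each gene (x axis) in the combination, GSK-126, fenretinide and vehicle libraries, over intervals within 10 kb of the TSS (left) and at any distance (right); bars start at 0, each stands for 1 library, and lines are 95% counting intervals. GRHL3 and TFAP2A on the left and ELF3 on the right are lowest in the combination and GSK-126 libraries, and FOXA1 is highest in them.

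Within 10 kb of the TSS, GSK-126 was called lower than vehicle in 2 of the 3 measured members, GRHL3 and TFAP2A. Of the 14725 genes measured in that comparison, 41.4% were called lower and 11.5% higher, so a loss of library share near the TSS was common in this library. The combination library was called lower than vehicle in the same 2 members, against 32.9% lower and 9.86% higher among 14736 genes. Fenretinide was called lower than vehicle in 1 of 3 measured members, TFAP2A, against 1.5% lower and 0.337% higher among 14818 genes. With 3 measured members, such counts are a description of these genes.

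GATA3 had 2 intervals within 10 kb, both upstream of the gene. The larger, chr10:8032564-8041271, held 62 fragments in the combination library, 62 in GSK-126, 69 in fenretinide and 79 in vehicle, and it was the one GATA3 interval with a peak in all 4 libraries. The smaller, chr10:8041602-8043119, held 7 in the combination library, 4 in GSK-126, 12 in fenretinide and 13 in vehicle. Together they gave 69 fragments in the combination library, 66 in GSK-126, 81 in fenretinide and 92 in vehicle, a narrow range. The ratio to vehicle was 0.813 (0.586 to 1.12) for the combination, 0.761 (0.546 to 1.06) for GSK-126 and 0.797 (0.584 to 1.09) for fenretinide, and each counting interval included 1. With the background scaling given above, GATA3 was called lower, at 0.463 (0.334 to 0.639) in the combination library and 0.448 (0.321 to 0.621) in the GSK-126 library.

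The GATA3 intervals farther upstream were thinner. Beyond 10 kb, 5 intervals between 14.4 and 21.0 kb upstream held 29 fragments in the combination library, 14 in GSK-126, 57 in fenretinide and 51 in vehicle. This sum was called lower in GSK-126, at 0.291 (0.149 to 0.534) of vehicle. One of these intervals, chr10:8030159-8032052, had 8 fragments in the combination library, 5 in GSK-126, 12 in fenretinide and 18 in vehicle, and it was called lower in GSK-126 at 0.295 (0.0855 to 0.823). Summed over all 7 intervals, GATA3 was at 0.593 (0.445 to 0.785) in the GSK-126 library, short of the call at the chosen threshold. Within 100 kb on both sides of the gene, including intervals of GATA3-AS1 and LINC00708, the combination library had 152 fragments, GSK-126 125, fenretinide 184 and vehicle 168, with no call.

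FOXA1 had annotated peaks only at a distance, in 9 intervals whose nearest peak centres lay 37.1 to 149 kb downstream of its TSS. Fragments were counted in intervals only, so FOXA1 itself has no value. Of these, 7 lay in intron 12 of MIPOL1, the gene next to FOXA1, and 2 in the intergenic stretch between them, so their annotation to FOXA1 rests on the nearest TSS alone. Summed, they held 337 fragments in the combination library, 327 in GSK-126, 132 in fenretinide and 101 in vehicle. The combination and GSK-126 libraries stood close to each other and above the other pair. FOXA1 was called higher in the combination at 3.62 (2.89 to 4.56) times the vehicle share and in GSK-126 at 3.43 (2.74 to 4.34) times. Fenretinide was at 1.18 (0.906 to 1.55) and was not called. With background scaling the call held at a lower ratio, 2.06 in the combination and 2.02 in GSK-126.

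The intervals behind this rise differed in size. At chr14:37552949-37557412, a 4.46 kb intergenic stretch 0.588 kb from the edge of MIPOL1 and 32.1 kb from FOXA1, the combination library had 78 fragments, GSK-126 106, fenretinide 6 and vehicle 6. Its ratio to vehicle was 14.1 (6.19 to 39.6) in the combination and 18.7 (8.33 to 52.2) in GSK-126, and only these 2 libraries had a peak there. At chr14:37484506-37489308, where all 4 libraries had a peak, the combination had 95 fragments, GSK-126 103, fenretinide 53 and vehicle 43, and the combination (2.39, 1.65 to 3.52) and GSK-126 (2.54, 1.76 to 3.72) were both called higher.

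Other intervals of that intron were called in 1 or both of these libraries. At chr14:37503135-37506878 the combination had 75 fragments, GSK-126 43, fenretinide 42 and vehicle 32, so that the combination was called higher at 2.54 (1.66 to 3.97) and GSK-126, at 1.43 (0.881 to 2.33), was not. The combination over GSK-126 was 1.78 (1.21 to 2.66) there, also short of a call. At chr14:37444548-37446664, the farthest interval, the combination had 45 fragments, GSK-126 35, fenretinide 12 and vehicle 13, and both were again called higher. Without the intergenic interval of the largest rise, chosen after its values were seen, FOXA1 gave 2.95 in the combination and 2.47 in GSK-126. Both were called higher. Of the 5 FOXA1 intervals called higher in the combination, 3 had a peak in that library and none in vehicle. In GSK-126 the same held for 2 of 3. An interval that entered through the treated libraries alone tends to be higher there by that choice. The FOXA1 sums carry this limit, with or without the intergenic interval. A window of 100 kb on both sides of FOXA1 is a different set, since it leaves out the 5 farthest of the 9 intervals and 8 of its 12 intervals carry no FOXA1 peak, among them those of TTC6. There the combination had 531 fragments, GSK-126 534, fenretinide 165 and vehicle 115, or 5.00 (4.08 to 6.17) times vehicle for the combination and 4.92 (4.02 to 6.08) times for GSK-126.

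PPARG had a single interval of 334 bases at chr3:12387113-12387446, in intron 3 of 6, 17.2 kb downstream of the TSS given by the deposited annotation. It held 7 fragments in the combination library, 1 in GSK-126, 0 in fenretinide and 0 in vehicle, too few for a call. The combination library alone had a peak there, with a score of 20. A count of 0 allows up to 3 fragments, and the 7 fragments are 0.443 fragments per 1000000 interval fragments.

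GRHL3 had the most intervals of the 6 genes, 14, from 56.2 kb upstream to 28.0 kb downstream of its TSS. The 3 within 10 kb held 36 fragments in the combination library, 36 in GSK-126, 130 in fenretinide and 155 in vehicle. The combination and GSK-126 libraries were low and equal in count, and fenretinide lay nearer to vehicle. GRHL3 fell to 0.252 (0.170 to 0.364) of the vehicle share in the combination and to 0.246 (0.166 to 0.356) in GSK-126. Fenretinide was at 0.759 (0.597 to 0.965), whose counting interval excluded 1 but whose size did not reach the call.

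The interval over the outer GRHL3 promoter printed above, chr1:24315599-24321325, had 9 fragments in the combination library, 16 in GSK-126, 54 in fenretinide and 84 in vehicle. That stretch also lies within GRHL3-AS1, an antisense RNA gene, and ChIP fragments do not distinguish the strands. The ratio to vehicle was 0.116 (0.0513 to 0.231) in the combination, 0.202 (0.110 to 0.347) in GSK-126 and 0.582 (0.406 to 0.829) in fenretinide. In intron 1, chr1:24324249-24329263 had 25 fragments in the combination, 14 in GSK-126, 62 in fenretinide and 65 in vehicle, and it was called lower in the combination (0.417, 0.252 to 0.670) and in GSK-126 (0.228, 0.118 to 0.411). The last of the 3, chr1:24313109-24314084, upstream, had 2 fragments in the combination, 6 in GSK-126, 14 in fenretinide and 6 in vehicle, and it had a peak in fenretinide alone.

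One upstream interval of GRHL3 had nearly the same share in the combination, GSK-126 and vehicle libraries. At chr1:24268040-24276189, 8.15 kb long and 43.2 kb from the gene, the combination had 309 fragments, GSK-126 320, fenretinide 313 and vehicle 340. The ratio to vehicle was 0.985 (0.841 to 1.15) in the combination, 0.998 (0.854 to 1.17) in GSK-126 and 0.833 (0.712 to 0.974) in fenretinide. By the authors' score its peak reached 61 in the combination (top 1.63% of that library's peaks), 78 in GSK-126 (top 1.32%), 73 in fenretinide (top 1.47%) and 84 in vehicle (top 0.732%). Its density, 2.43 fragments per kb per 1000000 interval fragments in vehicle, was the highest of the 42 member intervals there, and GRHL3-AS1, 29.7 kb away, is the nearest annotated gene.

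Its neighbours differed from it. At chr1:24277524-24282592, the next interval, the combination had 29 fragments, GSK-126 21, fenretinide 80 and vehicle 96, a fall to 0.327 (0.208 to 0.50) in the combination and 0.232 (0.137 to 0.375) in GSK-126. At chr1:24296126-24304565 the combination had 34 fragments, GSK-126 22, fenretinide 111 and vehicle 145, a fall to 0.254 (0.169 to 0.371) in the combination and 0.161 (0.0978 to 0.253) in GSK-126. With the flat interval included, GRHL3 summed over all 14 intervals had 484 in the combination, 459 in GSK-126, 768 in fenretinide and 922 in vehicle, and it was not called at 0.569 (0.508 to 0.636) in the combination or 0.528 (0.471 to 0.591) in GSK-126. Without that interval, a choice made after its values were seen, 175 fragments in the combination, 139 in GSK-126, 455 in fenretinide and 582 in vehicle gave 0.326 (0.274 to 0.386) in the combination and 0.253 (0.209 to 0.305) in GSK-126, both called lower.

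Over all GRHL3 intervals with enough fragments, 8 of 10 were called lower in the combination, 9 of 10 in GSK-126 and 3 of 12 in fenretinide, and none was called higher. Lower calls over all measured intervals made up 15.8% in the combination, 21.6% in GSK-126 and 2.16% in fenretinide. Higher calls made up 24.1%, 25.9% and 3.31% in the same order. The 3 lower in fenretinide included chr1:24345892-24349098 in intron 13, with 9 fragments in the combination, 5 in GSK-126, 21 in fenretinide and 40 in vehicle, at 0.475 (0.266 to 0.825) of vehicle for fenretinide. The other 2, chr1:24287588-24288858 and chr1:24335408-24336477, were intervals that only the vehicle library had called as a peak. An interval that entered through the vehicle library alone tends to be higher there by that choice. Most GRHL3 intervals called lower in the combination or GSK-126 had no peak in the library called lower, so a like limit applies to them.

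**Figure D2:**
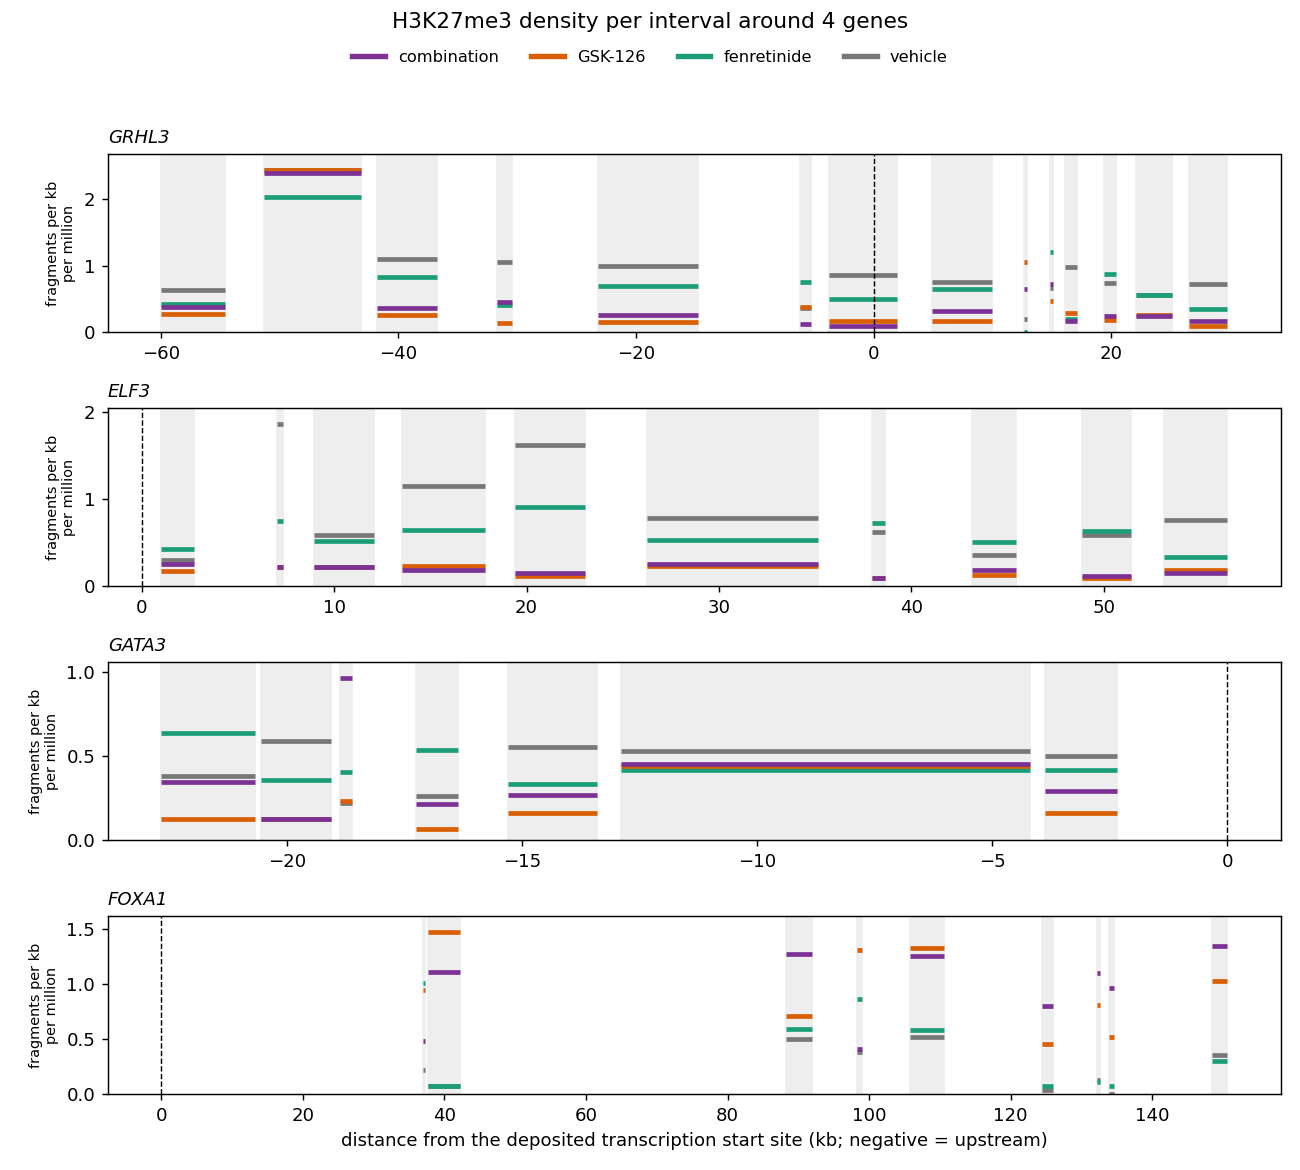
H3K27me3 density (fragments per kb per 1000000 interval fragments, y axis) in each interval of GRHL3, ELF3, GATA3 and FOXA1 against distance from the deposited TSS in kb (x axis, dashed line at the TSS); shaded spans are intervals and coloured lines the 4 libraries, 1 each. The interval 46.9 kb upstream of GRHL3 has nearly the same density in the combination, GSK-126 and vehicle libraries (equal lines hide each other), its nearest neighbours and the ELF3 intervals are lowest in the combination and GSK-126, and most FOXA1 intervals are highest in them.

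TFAP2A had 1 interval, chr6:10419607-10422914, which covers the outer start printed above and extends upstream of it. The deposited annotation places it 7.86 kb upstream of the TSS and calls it intergenic, since that annotation counts from a start near the inner one. It held 4 fragments in the combination library, 13 in GSK-126, 20 in fenretinide and 48 in vehicle. The combination library was lowest, and the vehicle library stood apart from all 3 treated ones. TFAP2A fell to 0.0903 (0.0236 to 0.247) of the vehicle share in the combination, to 0.287 (0.143 to 0.539) in GSK-126 and to 0.377 (0.212 to 0.648) in fenretinide. As a single interval the combination was also lower than fenretinide, at 0.239 (0.0595 to 0.715), while the combination over GSK-126, at 0.314 (0.0747 to 1.02) from 17 fragments, could not be measured under the minimum. The vehicle peak covered 3.31 kb with a score of 19, the fenretinide peak 0.618 kb with a score of 13, and the other 2 libraries had none. The interval thus has the extent of the vehicle peak. An interval bounded by the peak of 1 library tends to be higher in that library by that choice.

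No ratio was called over the wider TFAP2A neighbourhood. In the 100 kb on both sides of the gene, 33 intervals, with those of the antisense gene TFAP2A-AS1 and of OFCC1, held 529 fragments in the combination, 485 in GSK-126, 1035 in fenretinide and 1023 in vehicle. The ratio to vehicle was 0.560 (0.503 to 0.623) in the combination, 0.503 (0.450 to 0.561) in GSK-126 and 0.916 (0.839 to 0.999) in fenretinide. Fenretinide thus stood at 0.377 of vehicle in the TFAP2A interval and at 0.916 over the window that contains it.

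ELF3 had few counted fragments in the intervals at the gene itself. Its intronic interval, chr1:202011521-202013235, held 7 fragments in the combination, 5 in GSK-126, 14 in fenretinide and 9 in vehicle, and the interval at its transcript end, chr1:202017557-202017838, held 1 in the combination, 1 in GSK-126, 4 in fenretinide and 9 in vehicle. Together these 2 intervals within 10 kb gave 8 fragments in the combination, 6 in GSK-126, 18 in fenretinide and 18 in vehicle, under the minimum for a gene.

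Downstream of ELF3 a run of 8 further intervals, at 10.5 to 54.8 kb from the TSS, held most of the counted ELF3 fragments. All 10 intervals together had 98 fragments in the combination library, 93 in GSK-126, 337 in fenretinide and 445 in vehicle. The combination and GSK-126 libraries were again low and close to each other. ELF3 fell to 0.239 (0.190 to 0.298) of the vehicle share in the combination and to 0.222 (0.175 to 0.278) in GSK-126, and fenretinide was at 0.685 (0.593 to 0.791), not called. The lowest ratios of the ELF3 intervals were at chr1:202029934-202033568, with 9 fragments in the combination, 7 in GSK-126, 63 in fenretinide and 101 in vehicle. They were 0.0965 (0.0429 to 0.191) in the combination and 0.0735 (0.0288 to 0.157) in GSK-126. Most ELF3 intervals called lower in the combination or GSK-126, this one included, had no peak in the library called lower. The limit given for GRHL3 thus applies to them.

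Neighbouring ELF3 intervals went the same way by different amounts. At chr1:202024064-202028365 the combination had 13 fragments, GSK-126 16, fenretinide 53 and vehicle 85, with 0.166 (0.0848 to 0.299) in the combination and 0.20 (0.109 to 0.343) in GSK-126. At chr1:202036789-202045641, the one ELF3 interval with a peak in all 4 libraries, the combination had 36 fragments, GSK-126 33, fenretinide 89 and vehicle 119, with 0.328 (0.219 to 0.479) in the combination and 0.294 (0.194 to 0.436) in GSK-126. At chr1:202063627-202066934, a peak in vehicle alone, the combination had 8 fragments, GSK-126 10, fenretinide 21 and vehicle 43, and fenretinide was called lower there too, at 0.442 (0.249 to 0.761). Counted with edges within 10 kb of the RefSeq start, a choice made after the data were seen, ELF3 was measured and called lower. It was at 0.412 (0.229 to 0.711) in the combination and 0.361 (0.195 to 0.636) in GSK-126. That set admits chr1:202019463-202022603, with 11 fragments in the combination, 11 in GSK-126, 31 in fenretinide and 32 in vehicle. This interval had no peak in the combination or GSK-126. Over 100 kb on both sides, with GPR37L1, LMOD1, RNPEP and SHISA4, the combination had 254 fragments, GSK-126 186, fenretinide 652 and vehicle 890, or 0.309 (0.268 to 0.356) of vehicle for the combination and 0.222 (0.188 to 0.260) for GSK-126.

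At any distance, 5 members could be measured against vehicle. Both the combination and GSK-126 were called higher in 1 (FOXA1) and lower in 2 (TFAP2A and ELF3). Among all genes at any distance the combination was called higher in 14.7% and lower in 22.1%, and GSK-126 higher in 16.2% and lower in 29.6%. Fenretinide was called lower in 1 member (TFAP2A) and higher in none, against 0.791% lower and 0.486% higher over all genes.

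Counted by interval, 27 of the 42 member intervals could be measured for the combination, of which 5 were called higher and 15 lower. Over all 158263 measured intervals 24.1% were called higher and 15.8% lower. For GSK-126, 23 were measured, with 3 higher and 17 lower, against 25.9% higher and 21.6% lower over all intervals. Fenretinide had 29 measured, none higher and 5 lower, against 3.31% higher and 2.16% lower. All intervals called higher in the combination or GSK-126 belonged to FOXA1. Most calls rested on peaks that were present on one side only: of the 15 lower in the combination 4 had a peak in both libraries, of the 17 lower in GSK-126 2 did, and of the 5 higher in the combination 2 did.

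**Figure D3:**
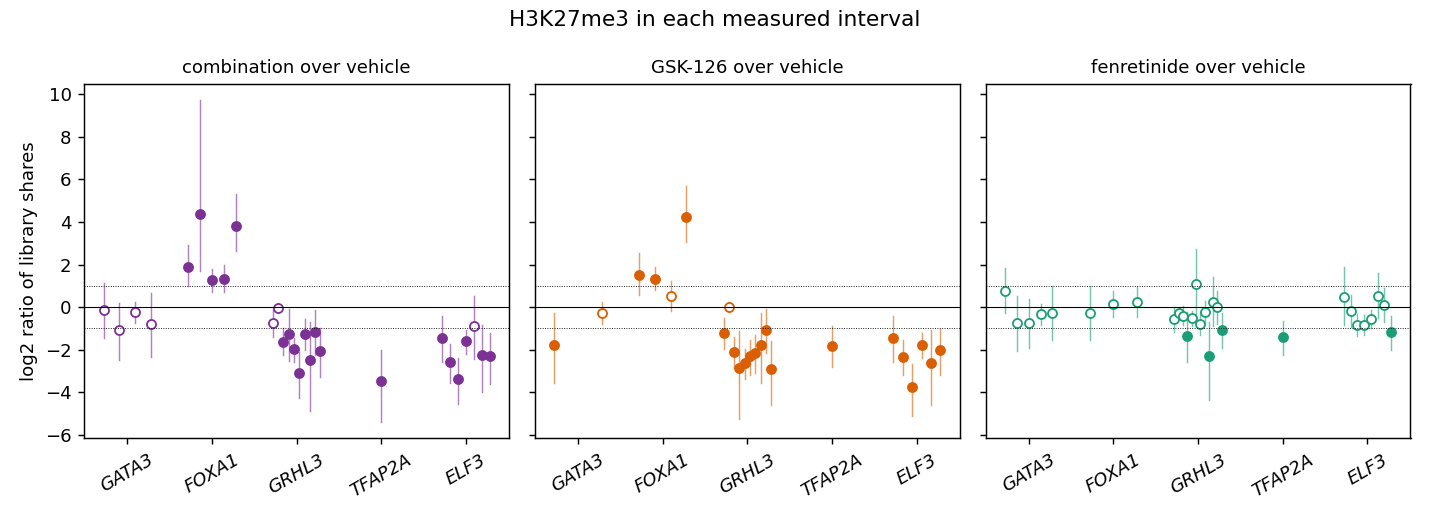
Log2 ratio of library shares over vehicle (y axis) for each measured interval of 5 genes (x axis, intervals in genome order within a gene) in the combination, GSK-126 and fenretinide libraries; filled points were called, open points were not, vertical lines are 95% counting intervals and dotted lines mark the 2-fold limits. The FOXA1 points lie above 0 and most GRHL3, TFAP2A and ELF3 points below it in the combination and GSK-126 panels, while most fenretinide points are open.

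The combination and GSK-126 libraries were compared directly. Of the members, 2 could be measured within 10 kb and 4 at any distance, and none was called. TFAP2A and PPARG held too few fragments at either distance. None of 16 measured intervals was called. Over all genes within 10 kb, 0.443% were called higher and 0.501% lower, and at any distance 0.287% higher and 0.353% lower. Over all intervals, 2.48% were called higher and 1.82% lower. GRHL3 was at 1.02 (0.626 to 1.67) within 10 kb, GATA3 at 1.07 (0.751 to 1.52), and at any distance FOXA1 was at 1.05 (0.902 to 1.23) and ELF3 at 1.08 (0.802 to 1.45). Differences inside these bounds were not detectable at this depth.

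Against fenretinide, the combination was called lower in GRHL3 within 10 kb, at 0.331 (0.223 to 0.483), and not in GATA3, at 1.02 (0.729 to 1.42), which makes 1 of 2 measured members against 18.7% lower and 9.43% higher over all genes. At any distance it was called higher in FOXA1, at 3.06 (2.49 to 3.77), and lower in ELF3, at 0.348 (0.275 to 0.437), against 13.4% higher and 11% lower over all genes. With background scaling FOXA1 was at 1.91 and was no longer called. By interval, 5 of 26 were called higher, all of FOXA1, and 13 lower, against 18.6% and 12.1% over all intervals. These values share the combination library with the comparison to vehicle and add no separate library.

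Peak calls gave another view of the same loci. The members had 21 peaks over 35.9 kb in the combination library, 11 over 26.4 kb in GSK-126, 35 over 57.5 kb in fenretinide and 28 over 86.4 kb in vehicle. Centred within 10 kb, the combination had 3, GSK-126 0, fenretinide 10 and vehicle 6, given here without a genome-wide share at that distance. The GSK-126 peak in the larger GATA3 interval was centred beyond 10 kb. Over the genome the combination library had the most peaks, 274393, against 217751 in GSK-126, 234815 in fenretinide and 212277 in vehicle. Those peaks covered 829 Mb in the combination, 700 Mb in GSK-126, 746 Mb in fenretinide and 703 Mb in vehicle. Peaks of fenretinide at GRHL3 were more numerous and shorter than those of vehicle, with 16 peaks over 30.2 kb in fenretinide and 11 over 42.6 kb in vehicle.

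**Figure D4:**
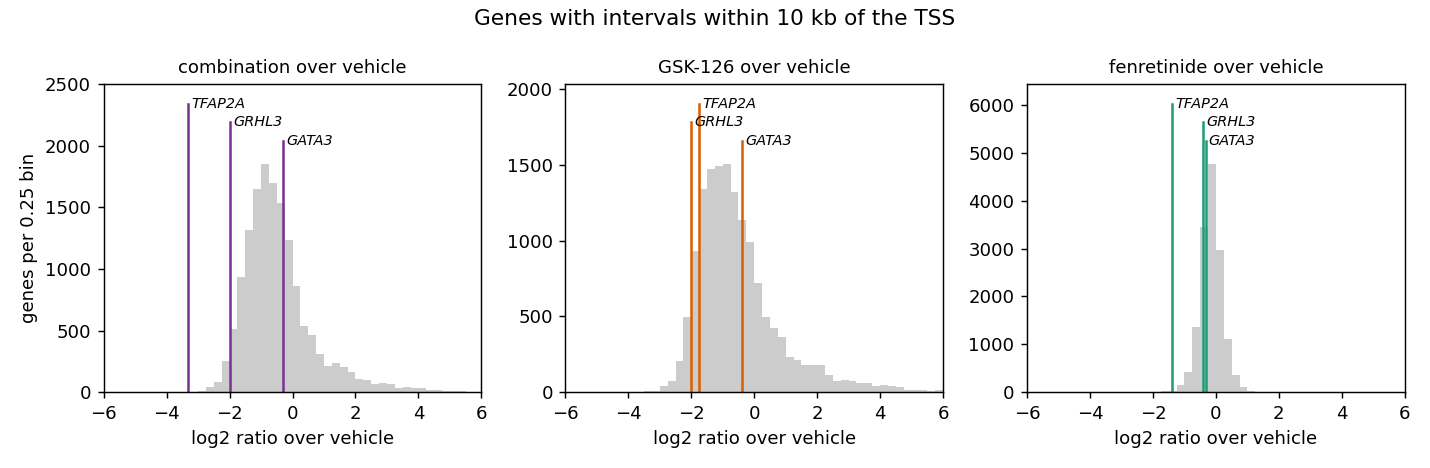
Number of genes (y axis) by log2 ratio of library share over vehicle (x axis, bins of 0.25) for all genes measured within 10 kb of the TSS in the combination, GSK-126 and fenretinide libraries, with GATA3, GRHL3 and TFAP2A marked. The median of all genes lies at -0.64 for the combination, -0.79 for GSK-126 and -0.15 for fenretinide. GATA3 lies above the first 2 medians, and GRHL3 and TFAP2A below all 3. Each median is inside the counting interval of GATA3, and the fenretinide median is inside that of GRHL3.

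Set against all genes within 10 kb, GATA3 lay above the median in the combination and GSK-126 and below it in fenretinide. GRHL3 and TFAP2A lay below the median in each of these libraries. The median log2 ratio was -0.64 in the combination, -0.79 in GSK-126 and -0.15 in fenretinide. As ratios these medians are 0.640, 0.579 and 0.900, and each lay inside the counting interval of GATA3. The fenretinide median also lay inside the counting interval of GRHL3. Those positions are thus within counting error. GATA3 had log2 ratios of -0.30 in the combination, -0.39 in GSK-126 and -0.33 in fenretinide. GRHL3 had -1.98 in the combination, -2.01 in GSK-126 and -0.40 in fenretinide, and TFAP2A had -3.31 in the combination, -1.76 in GSK-126 and -1.39 in fenretinide.

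By the distance between the 3 log2 ratios of a gene and those of a member, over 4 libraries and 14174 candidate genes, the genes most like GRHL3 were GLTSCR1 (0.0308), CAMKK1 (0.0472) and SLC44A4 (0.0501). The nearest to GATA3 were LOC102723647 (0.0266), H3F3C (0.0640) and MIR4480 (0.0805). For TFAP2A the nearest were farther off, ADORA2A (0.450), WNT10B (0.599) and LAG3 (0.612). TFAP2A rests on 4 fragments in the combination and 48 in vehicle, and the counting interval of that ratio, 0.0236 to 0.247, is wide. Whether these distances exceed counting error was not tested. ADORA2A had 11 fragments in the combination, 23 in GSK-126, 45 in fenretinide and 95 in vehicle. It was picked by its likeness in these ratios, so sharing the order of libraries with TFAP2A is no separate observation.

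Paralogues of the members, among them other GATA, FOXA, PPAR, grainyhead, AP-2 and ETS genes, had lower calls near the TSS in the same 2 libraries. Of 12 paralogues measured within 10 kb, 7 were called lower and none higher in the combination (median log2 ratio -1.26), 8 lower and none higher in GSK-126 (-1.26), and none was called in fenretinide (-0.51), against the medians of all genes given above and lower calls in 32.9% of all genes in the combination and 41.4% in GSK-126. FOXA3, a paralogue of FOXA1, had 166 fragments in the combination, 111 in GSK-126, 398 in fenretinide and 553 in vehicle, and fell to 0.325 in the combination and 0.213 in GSK-126. GRHL1, the paralogue of GRHL3, had 38 in the combination, 27 in GSK-126, 110 in fenretinide and 145 in vehicle, and fell to 0.284 in the combination and 0.197 in GSK-126. GATA5 had 217 in the combination, 251 in GSK-126, 557 in fenretinide and 933 in vehicle, and PPARA, the fatty acid receptor gene, had 22 in the combination, 35 in GSK-126, 75 in fenretinide and 114 in vehicle. Both were called lower in the combination, at 0.252 for GATA5 and 0.209 for PPARA. At any distance, 6 of 16 measured paralogues were called lower in the combination (median -0.74), 9 of 16 in GSK-126 (-1.13) and none in fenretinide (-0.52). None was called higher. Over all genes at any distance, 22.1% were called lower in the combination and 29.6% in GSK-126.

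Partners and co-factors of the members had calls on both sides. Of 12 measured within 10 kb, 1 was called higher and 3 lower in the combination (median log2 ratio -0.35) and 1 higher and 4 lower in GSK-126 (-0.62), and none of 13 was called in fenretinide (-0.29). The shares over all genes within 10 kb were 9.86% higher and 32.9% lower in the combination and 11.5% higher and 41.4% lower in GSK-126. At any distance the balance of the 16 measured partners was another, with 4 higher and 2 lower in the combination (median 0.30) and 5 higher and 5 lower in GSK-126 (0.39), against 14.7% higher and 22.1% lower, and 16.2% higher and 29.6% lower, over all genes in those libraries. PPARGC1A, a coactivator of PPARG, had 122 fragments in the combination, 115 in GSK-126, 56 in fenretinide and 35 in vehicle, and rose to 3.78 (2.57 to 5.67) times vehicle in the combination and 3.48 (2.37 to 5.24) times in GSK-126. ZFPM1, a cofactor of GATA proteins, had 18 in the combination, 25 in GSK-126, 80 in fenretinide and 116 in vehicle, and fell to 0.168 in the combination and 0.229 in GSK-126. TBX3, a T-box gene, fell to 0.376 in the combination and 0.356 in GSK-126.

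Among luminal and differentiation markers within 10 kb, 7 of 15 were called lower in the combination (median log2 ratio -0.97), 9 of 15 in GSK-126 (-1.26) and 2 of 14 in fenretinide (-0.31), and none was called higher. Lower calls over all genes made up 32.9% in the combination, 41.4% in GSK-126 and 1.5% in fenretinide. At any distance, 9 of 20 luminal markers were called lower in the combination (median -0.85), 10 of 20 in GSK-126 (-1.11) and 1 of 20 in fenretinide (-0.21). None was called higher. Over all genes at any distance, 22.1% were called lower in the combination, 29.6% in GSK-126 and 0.791% in fenretinide. UPK1A, a uroplakin gene of the urothelial surface, had 37 fragments in the combination, 39 in GSK-126, 146 in fenretinide and 169 in vehicle. BHLHE41, a transcriptional repressor gene, had 45 in the combination, 45 in GSK-126, 108 in fenretinide and 225 in vehicle, and it fell to 0.217 of vehicle in the combination, 0.212 in GSK-126 and 0.434 in fenretinide. FGFR3, a receptor gene often mutated in luminal bladder tumours, had 65 in the combination, 87 in GSK-126, 119 in fenretinide and 263 in vehicle, and in fenretinide it fell to 0.410 (0.327 to 0.510).

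Basal and squamous markers within 10 kb had 1 called higher and 2 lower of 17 in the combination (median log2 ratio -0.58), 1 higher and 3 lower of 17 in GSK-126 (-0.83) and none of 16 in fenretinide (-0.20). All genes were called higher in 9.86% and lower in 32.9% in the combination, and higher in 11.5% and lower in 41.4% in GSK-126. At any distance 4 of 22 basal markers were called higher and 2 lower in the combination (median -0.44). In GSK-126, 4 of 21 were called higher and 3 lower (-0.65). Over all genes at any distance, 14.7% were called higher and 22.1% lower in the combination, and 16.2% higher and 29.6% lower in GSK-126. NGFR, a basal cell receptor gene, had 440 fragments in the combination, 370 in GSK-126, 1060 in fenretinide and 1324 in vehicle, and fell to 0.360 in the combination and 0.296 in GSK-126. KRT17, a basal keratin gene, fell to 0.320 in the combination and 0.299 in GSK-126. SERPINB3, a squamous antigen gene, went the other way, with 47 in the combination, 49 in GSK-126, 22 in fenretinide and 13 in vehicle, a rise to 3.92 (2.09 to 7.89) times vehicle in the combination and 4.0 (2.14 to 8.03) times in GSK-126.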

How the data were processed

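The 4 H3K27me3 ChIP-seq libraries of T24 cells, 1 per treatment, were analysed. The 4 input and 4 RNA-seq libraries were not used here. The authors deposited raw counts of fragments for 273664 consensus intervals, made with featureCounts 2.0.1 on read pairs, without strand, with a minimum overlap fraction of 0.2 and with a fragment counted in every interval it overlapped, per the file headers. The authors also deposited 1 peak list per library with a peak score (minimum 10, scale not stated) and the distance to the nearest TSS, annotated with HOMER, per the file headers. Peaks were called with MACS2 2.1.0 on hg38 (GRCh38), per the submitters' processing notes. The aligner and calling control are not given in the sources used here. Deposited interval starts lay 1 base below the outermost peak start and were moved to 1-based coordinates.

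Each library had between 15812933 and 18928836 fragments in intervals. Shares of these totals were compared with Python 3.11.15, numpy 2.4.6, pandas 2.3.3 and scipy 1.17.1, as a ratio with a 95% exact Clopper-Pearson interval. No model or test was fitted. Log2 ratios used a pseudocount of 0.5, and a count of 0 was read as up to 3 fragments. Alternatives used DESeq2 1.42.0 size factors and edgeR 4.0.16 TMM factors (R 4.3.3) for scaling only, the 25% of intervals with the fewest fragments per kb, a ratio of 1.5, no fragment minimum, other TSS distances (2 and 50 kb), RefSeq gene spans with 5 kb, and peaks with a score of at least 20. The calculation was tested on simulated data. All count columns matched a labelled library.

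The 6 genes are named whatever their values, with every interval within 10 kb and, beyond it, up to 4 intervals per gene by fragments or call. From each of 4 gene lists up to 2 risen and 2 fallen genes per comparison with vehicle are named, ranked by the counting bound nearest to 1. A few further intervals and window sums were described after their values were seen. The genes and lists were chosen with earlier results of these data known. Promoter sequences came from RefSeq (GRCh38.p14), in which all 6 genes matched by symbol.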

Additional observations from a re-analysis of the deposited data

How the results depend on the processing

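With 1 library per treatment, nothing separates a treatment from its library, and the depth left PPARG, ELF3 within 10 kb and 15 of 42 member intervals (combination against vehicle) unmeasured. No paired analysis was possible because each treatment had 1 library. Leaving out a replicate was not possible either. No called ratio of a member changed direction under the alternatives listed here. Scaling by DESeq2 or TMM factors moved log2 ratios by -0.16 at most (TMM, combination against vehicle). Background scaling moved them by the amounts in the report, and by -0.68 where the combination was set against fenretinide. By its construction that scaling shifts every ratio of a comparison by one amount.

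Members called within 10 kb numbered 1 for the combination, 1 for GSK-126 and 0 for fenretinide with a TSS distance of 2 kb, since fewer intervals enter. Against fenretinide, 2 members were called for the combination without a minimum, within 50 kb, over RefSeq spans and within 10 kb of any RefSeq start, the last chosen after seeing the data. At any distance, background scaling called 5 members (1 higher, 4 lower) for the combination and 5 for GSK-126, a ratio of 1.5 called 5 for GSK-126, and no minimum called 4 for the combination against fenretinide. In that scaling FOXA1 was no longer called against fenretinide (1.91). Within 50 kb, GRHL3 was no longer called, at 0.566 for the combination and 0.535 for GSK-126, since its flat upstream interval then enters. A ratio of 1.5 called 8 member intervals for fenretinide and 1 for the combination against GSK-126. Member peaks with a score of at least 20 numbered 6 in the combination, 5 in GSK-126, 13 in fenretinide and 9 in vehicle, and peaks within 2 kb 1, 2 and 1 in the combination, fenretinide and vehicle.

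Over all genes within 10 kb, background scaling called 10952 for the combination (756 higher, 10196 lower, against 1453 and 4842), 418 for fenretinide (27 higher, 391 lower, against 50 and 223) and 9413 for the combination against fenretinide (690 higher, 8723 lower, against 1380 and 2739). For GSK-126 it gave 1067 higher and 10106 lower, against 1698 and 6096. A ratio of 1.5 called 9727 for the combination, 1561 for fenretinide, 855 for the combination against GSK-126 and 8147 against fenretinide. No minimum called 707 for fenretinide and 538 for the combination against GSK-126. A distance of 2 kb called 3052 for the combination, 3795 for GSK-126, 72 for the combination against GSK-126 and 1823 against fenretinide. RefSeq spans called 14743 for the combination, 18314 for GSK-126, 584 for fenretinide, 312 for the combination against GSK-126 and 9979 against fenretinide.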
